A study of Rattus norvegicus with 25 samples.

Results

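Apold1 (apolipoprotein L domain containing 1, ENSRNOG00000007830) was followed through the hippocampal transcriptome of rats subjected to the forced swim test (FST). It is 1 of the 32623 genes in the expression files. The gene was chosen by its measured levels in these rats, since it stood among the most increased genes in the group killed 20 min after the test. All values that compare the 20-m group with another group are therefore a description without a test. The shares of all genes called at 20 min are given as background only. For Apold1, the only comparison between groups that was tested was 24 h with control. Its covariation with other genes and with library measures between rats of the same group was also tested. Outlying rats within a group were looked for with Dixon's test.

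Apold1 encodes a membrane protein with a domain like that of the apolipoproteins L. It is known as an early response gene of vascular endothelial cells, switched on quickly and for a short time by ischaemia, hypoxia, growth factors and other acute stimuli. In the brain, early response genes are transcribed within minutes of a stimulus without the need for newly made protein, and their mRNAs are usually short-lived. Their products include transcription factors, phosphatases and kinases that damp signalling, and proteins that bind and destabilise mRNA.

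All animals were male Sprague Dawley rats, and the tissue was hippocampus. The FST places a rat in a cylinder of water from which it cannot leave. The 20-m group (7 rats) and the 24-h group (6 rats) had a pretest on one day and the test on the next, and were decapitated 20 min or 24 h after the test. The 6 control rats had neither, so swimming, handling and the pretest cannot be told apart in a comparison with control. No group had only the pretest. Polyadenylated RNA was sequenced in 25 libraries from these 19 rats, and the labels place the libraries in 5 batches. Every group had 3 rats in Batch 1. In Batch 2 there were 3 rats from each of the FST groups but a single control rat, and Batches 3 to 5 were repeated runs of 1 rat of the 20-m group and 2 control rats. Runs of 1 rat were summed. Total counts ranged from 6217562 to 9032877 per rat (median 7192763), and in the rats of the 20-m group from 6513085 to 7774046.

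The sequence upstream of the gene is shown because early response genes are commonly described by such elements. The promoter windows are the 250 bases before the annotated start in RefSeq (rat assembly GRCr8), which is another build than the one the expression values rest on. Apold1 is shown beside Ccn1, the named gene with the highest log2 fold change at 20 min, and Dusp1. Of 10452 genes with enough counts, which leave out Ccn1, Zfp36 and Atf3, Dusp1 followed Apold1 most closely over all rats with batch removed. That likeness holds the step of the 20-m group, which chose Apold1. With group removed as well, Dusp1 was at place 153. Capitals mark the TATA box letters TATAAA and the response element core TGACG on either strand, so that a CGTCA in capitals is the same core on the opposite strand. The full palindrome TGACGTCA contains that core on both strands. The windows are chr4:169552349-169552598 (plus strand) for Apold1, chr2:237225690-237225939 (minus strand) for Ccn1 and chr10:17184603-17184852 (plus strand) for Dusp1.
Apold1: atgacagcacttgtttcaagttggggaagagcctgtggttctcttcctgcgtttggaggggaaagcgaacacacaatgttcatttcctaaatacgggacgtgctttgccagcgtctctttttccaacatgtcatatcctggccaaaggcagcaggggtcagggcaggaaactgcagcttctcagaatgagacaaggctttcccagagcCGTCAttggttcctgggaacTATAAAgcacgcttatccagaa
Ccn1: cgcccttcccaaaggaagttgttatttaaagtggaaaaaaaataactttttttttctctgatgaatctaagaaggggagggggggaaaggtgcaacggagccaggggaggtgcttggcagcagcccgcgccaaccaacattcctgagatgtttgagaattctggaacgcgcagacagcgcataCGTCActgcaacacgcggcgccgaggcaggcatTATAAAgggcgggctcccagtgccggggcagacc
Dusp1: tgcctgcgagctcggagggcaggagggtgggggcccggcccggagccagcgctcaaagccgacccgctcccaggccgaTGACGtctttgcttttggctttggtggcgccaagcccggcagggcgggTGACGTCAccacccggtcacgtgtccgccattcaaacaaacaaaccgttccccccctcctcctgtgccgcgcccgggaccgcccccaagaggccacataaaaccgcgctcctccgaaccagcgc

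In the Apold1 window TATAAA, the core of the TATA box, lay 22 to 17 bases before the start. The core of the cAMP response element, TGACG, lay on the opposite strand 42 to 38 bases before it. The Ccn1 window held the same pair, with the TATA box letters at 34 to 29 bases and the core on the opposite strand at 67 to 63 bases. Dusp1 had no such TATA box but the full palindrome 124 to 117 bases before its start. Of 27457 rat promoters of the same length, 13.09% held the letters TATAAA. The core TGACG stood in 18.96%, the palindrome TGACGTCA in 1.7%, and the TATA box letters together with the core in 1.74%. All motifs were searched on both strands.

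Of the 11 genes with a name here, 7 had a window. The TATA box letters were found in Apold1, Ccn1 and Klf4, and the core in Apold1, Btg2, Ccn1, Dusp1 and Sik1. In Klf4 they lay only on the opposite strand, 78 to 73 and 146 to 141 bases before the start, unlike in Apold1 and Ccn1. The Apold1 window lacked GGGCGG, the GC box, which 5 of the 7 windows and 32.39% of all promoters held. It also held no AP-1 core (TGANTCA, in 6.36% of all promoters) and no CArG box (1.5%). Neither the E-box CACGTG (5.79%) nor the letters AGAACA (17.08%), a part of steroid receptor elements, occurred in it. Its GC content was 49.6%, beside a median of 52.0% over all promoters, while that of Ccn1 was 54.0% and that of Dusp1 68.8%. These matches describe letters in the window, not bound sites. In the GRCr8 gene order Apold1 stands between Cdkn1b and Ddx47.

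In control rats Apold1 was a low-level transcript. The 6 rats had between 24 and 48 counts (median 38.5), or 3.42 to 7.35 CPM (counts scaled by TMM to a common library size, median 5.49), with a mean of 5.24 ± 1.46 (SD, n = 6). In TPM, the transcript share that also allows for gene length, the mean was 2.51 ± 0.775 (SD, n = 6). Ranked by TPM, Apold1 stood at places 11487 to 13438 of all genes in these rats.

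At 20 min after the FST every rat of the 20-m group stood above every other rat. The 7 rats had 134 to 271 counts (median 181) and 20.9 to 34.4 CPM (median 27.9), with a mean of 27.4 ± 5.87 CPM (SD, n = 7). In TPM the mean was 12.6 ± 3.13 (SD, n = 7) and the range 8.6 to 16.9. The gene moved to places 6029 to 8117 in the order by TPM. The lowest rat of the 20-m group (rat 1) was 2.46 times the highest rat of the other groups (rat 13 of the 24-h group), so the groups did not overlap. In bulk tissue, more transcript per cell and more cells carrying it cannot be told apart.

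At 24 h the levels were again those of a low-level transcript. The 6 rats had 23 to 65 counts (median 33) and 3.34 to 8.48 CPM (median 4.88), with a mean of 5.14 ± 1.79 CPM and 2.42 ± 0.785 TPM (SD, n = 6). Of these rats, 4 lay inside the range of the control rats, rat 14 lay just below it and rat 13 above it.

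**Figure D1:**
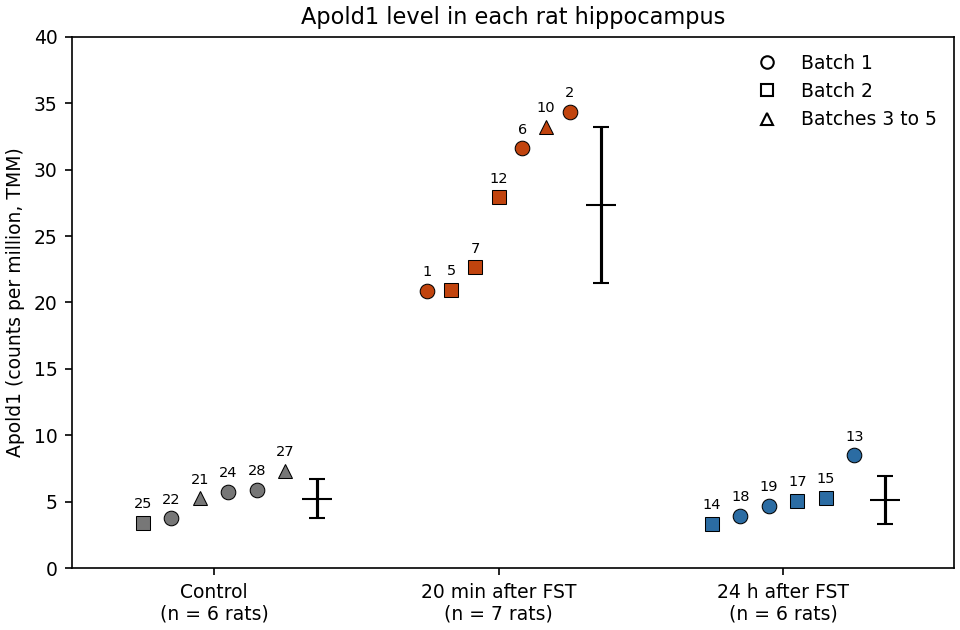
Apold1 in TMM-scaled CPM for each rat, numbered as in the labels, by group. Marker shape gives the batch, and the bar beside each group is the mean ± SD over rats. The 7 rats of the 20-m group lie between 20.9 and 34.4, above all control rats and all rats of the 24-h group.

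The fitted log2 fold change of Apold1 at 20 min against control was 2.53 (SE 0.184, 95% confidence interval 2.14 to 2.92), or 5.77-fold (4.42 to 7.55). Of 13908 genes tested in that comparison, 0.0431% were called differentially expressed genes (DEGs) by an adjusted p below 0.05 together with more than 1.5-fold change. All 6 of them were higher, and Apold1 was among them by its choice. By size of log2 fold change Apold1 was 4 of 13908. At 20 min against 24 h its log2 fold change was 2.34 (SE 0.18, interval 1.97 to 2.72), or 5.07-fold (3.91 to 6.59), where 0.036% of the genes were called. The comparisons share the rats of the 20-m group.

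The difference was present in each batch that held the groups. On the log2 CPM scale the 20-m rats exceeded the control rats by 2.43 in Batch 1 (3 against 3 rats), by 2.70 in Batch 2 (3 against 1) and by 2.37 in Batches 3 to 5 (1 against 2). They exceeded the 24-h rats by 2.33 in Batch 1 and by 2.33 in Batch 2. In each of these the lowest 20-m rat was above the highest rat it was compared with, by at least 1.27 on the log2 scale. Against the control mean of their own batch, the 7 rats of the 20-m group stood at 4.07 to 8.17 times that mean. The upper end is rat 12 of Batch 2, where a single control rat is the reference.

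Single libraries gave the same separation. The 3 runs of rat 10 of the 20-m group had 70, 55 and 118 counts, which came to 21.45, 17.27 and 14.86 TPM. The runs of control rat 21 had 8, 6 and 18 counts (1.91, 1.48 and 3.05 TPM), and those of control rat 27 had 10, 19 and 18 counts (2.46, 4.93 and 3.33 TPM). Within each of these rats the exact Poisson 95% intervals of the runs overlapped. Across all libraries the lowest bound in the 20-m group was 17.2 CPM by library total, and the highest bound in the other groups was 16.0, in a run with 19 counts. The intervals cover counting error only.

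**Figure D2:**
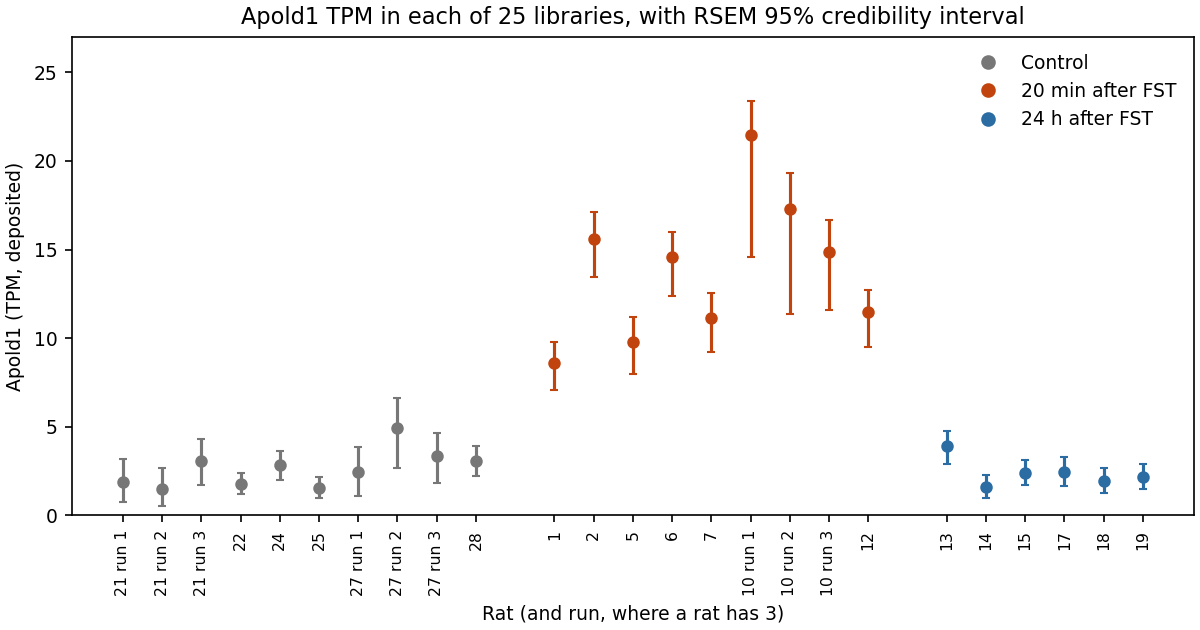
Apold1 TPM in each of the 25 libraries, with the 95% credibility interval that RSEM gave, by group. Every library of the 20-m group lies above every library of the other groups, and the runs of rats 10, 21 and 27 stand side by side.

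The spread between rats of a group holds both animal-to-animal and counting variation. The coefficient of variation of CPM was 27.9% in control rats, 21.5% in the 20-m group and 35.0% in the 24-h group. The counting error expected at these counts is 16.2%, 7.15% and 16.3%. The highest rat was 2.15 times the lowest among controls, 1.65 times in the 20-m group and 2.54 times in the 24-h group. The biological coefficient of variation that edgeR fitted for Apold1 was 19.1%, beside 16.4% for the trend at its expression level. The residual SD of its log2 CPM after group and batch was 0.34, beside a median of 0.20 over the 500 genes nearest to it in mean expression. That mean is over all 19 rats and was raised for Apold1 by the 20-m group. In the other rats its counts were lower and their counting error larger, so the 2 values are not at like depth.

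The comparison of 24 h with control was not used to choose the gene, although it shares the control rats with the one that was. No difference was detected. The log2 fold change was 0.19 (SE 0.219, interval -0.27 to 0.65), or 1.14-fold (0.828 to 1.56), with an adjusted p of 1.00 from edgeR. An exact permutation test of mean log2 CPM over the 12 rats gave p = 0.855 (2-sided), with a difference of -0.04 before batch was taken into account, so the sign was not stable. The smallest p that this test can reach is 0.00216. Within Batch 1 the difference was 0.10 (exact permutation p = 0.9, where 3 rats against 3 cannot go below 0.1). In Batch 2 it was 0.37 against a single control rat. Over all genes in this comparison, edgeR called 0 of 13908 (0%), and 441 genes had an unadjusted p under 0.05. The count was also 0 with DESeq2 (351 genes under 0.05 before adjustment) and with limma voom (407 genes).

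Apold1 was set beside 10 other genes that could be named. Their names come from a list of 13 identifiers that the study made on these same rats, so their values at 20 min are a description. The remaining 2 identifiers were left out of the named genes because the list gives each an ambiguous name. ENSRNOG00000032585 was counted in 5 of 6 controls (up to 42.5) and in 3 of 6 rats at 24 h (up to 29.4), but in 0 of 7 at 20 min. ENSRNOG00000053462 had 4 to 66 counts in control rats (median 19), 0 to 29 in the 20-m group (median 22) and 2 to 58 in the 24-h group (median 26.5), with overlapping ranges. The study lists this identifier as higher at 20 min. Its mean CPM by library total, 2.09 at 20 min beside 3.83 in control rats, does not show that rise. Ccn1, a secreted matricellular protein and itself an early response gene of vessels, had a log2 fold change of 3.38 at 20 min against control (interval 2.63 to 4.14), which overlapped the interval of Apold1. Atf3, a stress-induced transcription factor, had 1.69 (1.02 to 2.37), and Dusp1, which switches off MAP kinases by dephosphorylation, also had 1.69 (1.32 to 2.07). The Atf3 interval overlapped that of Apold1 and the Dusp1 interval lay below it. Atf3 had 3 to 6 counts in control rats, 8 to 20 in the 20-m group and 2 to 9 at 24 h. Ccn1 had 1 to 12, 28 to 114 and 1 to 9 in the same order. Both genes were kept by the count filter only through the 20-m group, so their values rest on few control counts. For the AP-1 subunit Fos the log2 fold change was 1.25 (0.74 to 1.77).

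The remaining named genes were smaller. The salt-inducible kinase Sik1 had 1.14 and Zfp36, which drives decay of mRNAs with AU-rich elements, had 1.12. The Kruppel-like factors Klf2 and Klf4, known in endothelium for their response to blood flow, had 1.08 and 0.80. AABR07033249.1, for which only a clone-based name is known, had 0.90, and the antiproliferative gene Btg2 had 0.76. At 24 h against control 0 of the 11 genes passed. Their log2 fold changes ran from -0.13 (Btg2) to 0.55 (Sik1), each with an adjusted p of 1.00 from edgeR.

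**Figure D3:**
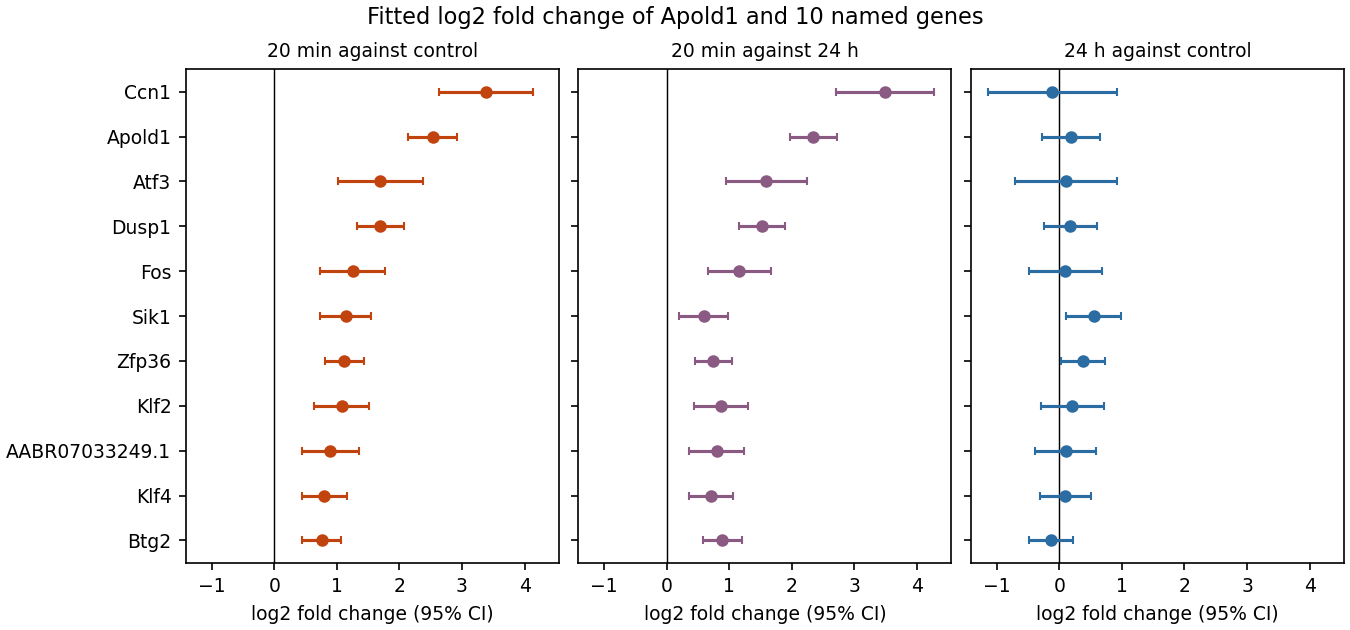
Fitted log2 fold change with 95% confidence interval of Apold1 and the 10 other named genes in 3 comparisons, from 1 edgeR fit over 19 rats. Apold1 stands second after Ccn1 at 20 min, and at 24 h against control its value is 0.19 with an interval across 0.

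The place of Apold1 among these genes differed by group on the length-scaled TPM scale. It stood in place 8 of 11 in control rats, in place 5 in the 20-m group and in place 9 in the 24-h group. In the 20-m group its mean of 12.6 was next to that of Fos, 12.5 ± 4.14 (SD, n = 7), a difference far inside their spread. In control rats its neighbours were Klf4 (3.33 ± 0.649) and Sik1 (2.02 ± 0.657), and the ranges of mean ± SD overlapped that of Apold1. At 24 h Sik1 (2.76 ± 0.924) stood next above it, with overlapping ranges, and Ccn1 (0.487 ± 0.252) next below, without overlap.

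Within single rats the ratio of Apold1 to Dusp1 in TPM was 0.303 to 0.590 in control rats (median 0.371), 0.509 to 0.774 in the 20-m group (median 0.627) and 0.218 to 0.508 in the 24-h group (median 0.334). The ranges of the 20-m group and the control rats overlapped, and the lowest 20-m rat (0.50857) lay barely above the highest 24-h rat (0.5085). The ratio of Apold1 to Fos had medians of 0.505, 0.986 and 0.456 in the same order, and that to Klf2 medians of 0.301, 0.820 and 0.253. For Fos the 20-m range (from 0.570) overlapped those of control rats (up to 0.642) and the 24-h group (up to 0.811). For Klf2 it (from 0.572) overlapped that of the 24-h group (up to 0.591) but not that of control rats (up to 0.427). The ratio to Ccn1 was lower at 20 min, with a median of 2.12 beside 4.03 in control rats and 5.64 at 24 h. Its ranges overlapped between all groups. Ccn1 had a median of 7 counts in control rats, so this ratio has wide counting error.

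**Figure D4:**
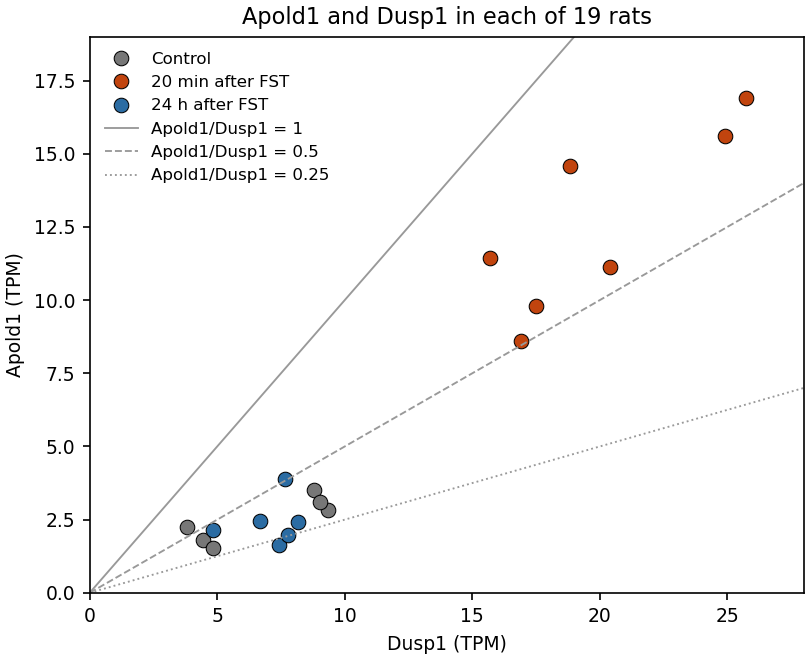
Apold1 against Dusp1, both in TPM, in each of the 19 rats, coloured by group, with grey lines of constant ratio. The 7 rats of the 20-m group lie apart from the other rats on both axes, at ratios of 0.509 to 0.774.

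The likeness of other genes to Apold1 was measured by Pearson's r over the 19 rats among 10452 genes with a mean of at least 50 counts per rat. With batch removed and group kept, r was above 0.8 for 12 genes. The 5 highest were Dusp1 (0.951), ENSRNOG00000005634 (0.876), ENSRNOG00000015304 (0.867), Klf4 (0.855) and Btg2 (0.845). These values follow the step of the 20-m group, which chose Apold1, and are a description. Ccn1, Zfp36 and Atf3 lay under the minimum count. The minimum is a mean over all 19 rats, which Klf4, Klf2 and Fos reached only through the 20-m group. Their counts summed to 252, 261 and 270 over the 6 control rats and to 271, 279 and 287 over the 6 rats at 24 h. Over the 7 rats of the 20-m group the sums were 496, 611 and 725.

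With group and batch both removed, the question was which genes moved with Apold1 between rats treated alike. In edgeR, with the log2 CPM of Apold1 as a term, 0 of 10452 genes passed an adjusted p of 0.05 (0%), and 505 had an unadjusted p under 0.05. A fit with limma-trend also called 0. By permutation of the rats within groups, 655 genes (6.27%) had a p under 0.05 for r, and the smallest adjusted p was 0.157 for Pearson's r and 0.105 for Spearman's rho. These permutations keep the groups but not the batches that the groups share. An exact permutation within group and batch, added after the data were seen, has 15552 arrangements and a smallest p of 6.43e-05. It gave 689 genes (6.59%) with a p under 0.05 for r and a smallest adjusted p of 0.336 for both r and rho. In neither permutation test can a lone gene at the smallest p (1e-05 within groups) pass the correction over 10452 genes. Several genes would have to reach it together, so these tests could not have called a lone gene. Values of r ran from -0.79 to 0.84.

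Over all 19 rats Dusp1 had the highest r of the 7 named genes with enough counts, but the order was not stable. Of these genes, Klf4, Klf2 and Fos had enough counts only through the 20-m group. Without the 20-m group r was 0.63 for Dusp1 and 0.67 for Sik1. Sik1 was also above Dusp1 without control rat 27 (0.63 against 0.51) and without rat 10 (0.61 against 0.58), and Klf4 without control rat 25 (0.57 against 0.54). Ccn1, Zfp36 and Atf3, under the minimum count, had r of 0.23, 0.26 and 0.38 over all rats. For Zfp36 r was 0.69 without the 20-m group. Over all rats the Pearson's r of Dusp1 with Apold1 was 0.56 (permutation p = 0.0186, adjusted p = 0.734) while its Spearman's rho was 0.56 (permutation p = 0.0154, adjusted p = 0.912), at place 153 of 10452. Permuted within group and batch, the exact p was 0.0488 for r and 0.0350 for rho (adjusted 0.747 and 1). Without rats 13 and 18, whose Apold1 values lay farthest from the median after group and batch were removed, r was 0.65. The result failed the correction over all genes. Sik1 (r 0.48) and Klf4 (r 0.46) were at 0.25 and 0.24 without those rats, whereas Btg2 (r 0.21) and Klf2 (r 0.13) were at 0.44 and 0.27. For AABR07033249.1 r was 0.36 (0.34 without those rats), and for Fos 0.22 (0.21). The permutation p of r for these 6 genes ran from 0.0573 to 0.597 (adjusted 0.790 to 0.917), and rho from 0.15 to 0.41 (permutation p 0.101 to 0.571, adjusted 0.997 to 1). The highest r of all was that of ENSRNOG00000008226 (0.84, permutation p = 3e-05, adjusted p = 0.157), a gene without a name here. Its rho was 0.86 (permutation p = 2e-05, adjusted p = 0.105), and r was 0.80 without rats 13 and 18. The exact p within group and batch was 0.000643 for its r (adjusted p = 0.747). The lowest r was that of ENSRNOG00000000246 (-0.79, permutation p = 3e-05, adjusted p = 0.157), with a rho of -0.86 (permutation p = 2e-05, adjusted p = 0.105) and an r of -0.69 without those rats. Its exact p within group and batch was 6.43e-05 for r (adjusted p = 0.336), the smallest that test can give. Neither gene passed the correction, which no lone gene can pass at the smallest p of either permutation test.

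**Figure D5:**
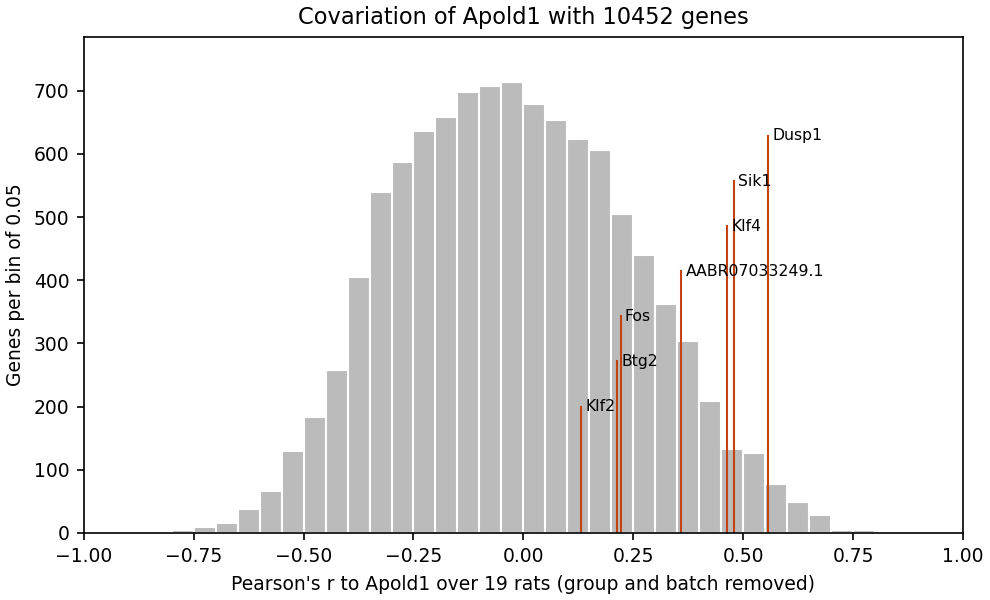
Histogram of Pearson's r between Apold1 and 10452 genes over 19 rats after group and batch were removed. Lines mark the 7 named genes with enough counts, from Klf2 at 0.13 to Dusp1 at 0.56.

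The deviations of Apold1 within group and batch were set beside library measures. Pearson's r was 0.06 with the total count, 0.39 with the number of genes detected, 0.05 with the share of the 100 most abundant genes and 0.26 with the TMM factor, with adjusted permutation p values of 0.491 to 0.838. Spearman's rho ran from 0.03 to 0.33, with adjusted permutation p values of 0.750 to 0.903. Exact permutation within group and batch gave adjusted p values of 0.508 to 0.824 for r and 0.745 to 0.894 for rho. Without rats 13 and 18, r came to -0.02, 0.26, -0.14 and 0.46 in that order. Markers of endothelium, mural cells, blood and other cell types were not analysed here, because names could not be paired with their identifiers, so the part of vessel content in the Apold1 level was not tested.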

How the data were processed

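Total RNA of 19 rat hippocampi, 25 libraries in all, was poly(A)-selected and sequenced by the authors. After trimming with AdapterRemoval V2 and alignment with STAR, the authors deposited RSEM values per gene of the Rnor 6.0 annotation: expected counts, which are not normalized, and TPM. The STAR and RSEM versions were not given in the sources used here. For Apold1 the files give 1 transcript, and its expected counts were whole numbers in every library.

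Runs of rats 10, 21 and 27 were summed, the counts rounded, and genes kept by filterByExpr (minimum count 10, minimum total 15), which left 13908. The test was the quasi-likelihood test of edgeR 4.0.16 (R 4.3.3) with TMM, group and 3 batch levels over 19 rats, Benjamini-Hochberg adjusted over all genes kept. TPM of these 3 rats was computed anew from the summed counts and the mean effective length, and is as deposited for the others. Log2 CPM had a prior count of 2. Standard errors were taken as |log2 fold change|/sqrt(F). Covariation was tested with the Apold1 log2 CPM as a term over genes with a mean count of at least 50, and r by 100000 permutations within groups. The edgeR tests of 24 h against control and of covariation were also run on simulated data, with outcomes not reported here. An exact permutation within group and batch was added after the data were seen. The rats are separate animals, and their numbers pair no rats across groups. Groups and rat numbers follow the sample labels. The labels and the Methods give 7 rats at 20 min where the Results of the study count 6, and all 7 were used. A supplementary table of the study lists other rats in part, without rats 6, 13 and 21 of the labels.

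Named genes were Apold1, genes that a supplementary list of the study pairs with an identifier, and those of highest and lowest r, of which at most 2 unnamed identifiers per direction are printed. These choices, and the choice of Apold1, were made with earlier results of these data known. Lists of cell type markers, early response, VEGF and shear response, Weibel-Palade and apolipoprotein L genes could not be matched to identifiers and were not analysed here. Alternatives covered scaling, DESeq2 1.42.0, limma 3.58.1 (voom, also after ComBat from sva 3.50.0), batch terms and subsets, single runs, a replicate block, filters, log2(TPM + pseudocount), and each rat left out.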

Additional observations from a re-analysis of the deposited data

Results flagged for a closer look

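A single rat stood apart from its group for genes set beside Apold1. In the 24-h group, rat 13 had 17.5 CPM of Sik1, with the next rat at 9.22 and the lowest at 8.19. The same rat had 10.4 CPM of Klf4, with the next rat at 6.10 and the lowest at 4.55. Each gap was larger than the 95% critical value of Dixon's test for 6 samples, which chance passes in about 1 in 20 groups, and 33 groups of values were looked at. Rat 13 was also the highest of the 6 rats for Apold1 (8.48 CPM) and Atf3, so for 4 of the 11 named genes, beside 22.9% of all 13908 genes. Rat 15 of the same group was likewise the highest for 4 of the 11 (Ccn1, Dusp1, Fos and Zfp36), beside 15.1% of all genes. The Apold1 gap of rat 13 was under the critical value.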

How the results depend on the processing

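The direction of Apold1 at 24 h against control was not stable: the log2 fold change was -0.014 without a batch term and ran from -0.011 (without rat 13 of the 24-h group) to 0.30 (without rat 18) when each rat was left out, and no setting tried called it. Over 16 other settings it ran from -0.014 to 0.28, with adjusted p values of 0.911 to 1.00. At 20 min against control the log2 fold change was 2.07 on the log2(TPM + 1) scale, which shrinks low values, and up to 2.66 otherwise, with 2.44 to 2.61 when each rat was left out. At 20 min against 24 h it ran from 1.93 to 2.41, and from 2.24 to 2.52 with rats left out. A limma voom fit kept the 25 libraries apart, with the 5 batches as terms and the rat as a replicate block (within-rat correlation 0.42). Its log2 fold changes were 0.15 at 24 h against control, 2.51 at 20 min against control and 2.37 at 20 min against 24 h. Only the first of these was tested, and it was not called either way. The count of genes covarying with Apold1 was 0 in every setting tried, with 0.0521 as the smallest adjusted p. The r of Klf4 ran from 0.11 to 0.57 and that of Sik1 from 0.23 to 0.63 with rats left out, lowest without rat 13 for both, and that of Dusp1 from 0.49 to 0.63. That of Btg2 ran from 0.034 (without rat 1) to 0.49 (without rat 13), that of Klf2 from -0.00026 (without rat 2) to 0.34 (without rat 12), that of Fos from 0.13 to 0.32 (without rats 19 and 12) and that of AABR07033249.1 from 0.21 to 0.51 (without rats 14 and 2). With exact permutation within group and batch, added after the data were seen, the adjusted p of r for the named genes was 0.747 to 0.924. Control and 24-h rats had 23 to 65 counts of Apold1, which limits precision in that comparison.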
